A study of Capra hircus with 3 samples.

Results

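The genes described here are 9 members of the BCL2 family, the proteins that control the mitochondrial route to apoptosis: BCL2, BCL2L1, MCL1, BAX, BAK1, BAD, BID, BCL2L11 and BBC3. They were listed by name, with no threshold on their values, although earlier results of these data were known, and were found through their goat NCBI gene IDs among 13023 protein-coding genes with deposited values. The 9 genes had 12 entries among 50041 loci, and entries of one gene ID were summed. The values come from mammary gland tissue of Laoshan dairy goats in early lactation, 10 days after parturition, in peak lactation, 90 days after, and in late lactation, 210 days after. The libraries are called E, P and L here after their titles, for the stage each is labelled with. The goats were 4 years old and in lactation number 3, and tissue was taken by surgery under xylazine anaesthesia. The methods describe 5 goats and 15 tissue samples, and RNA of the 5 goats at a stage was mixed into 1 library, so variation between goats is not measured. With 1 library per stage no difference between stages has a replicate check, and no p-value is given. All levels are FPKM, fragment numbers scaled to transcript length and to the mapped reads of a library, so levels of different genes can be set side by side. Read numbers per gene were not used here, so the depth behind a value is unknown.

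The BCL2 family sets a threshold for cell death at the outer membrane of mitochondria. BAX and BAK1, the effectors, form pores in that membrane and release cytochrome c, which starts the caspase cascade. The prosurvival proteins BCL2, BCL2L1 and MCL1 bind and restrain them, while the BH3-only proteins, here BAD, BID, BCL2L11 and BBC3, are the stress sensors that neutralise the prosurvival proteins or activate the effectors directly. In the mammary gland this balance is best known from involution, when the secretory epithelium is removed by cell death after weaning, and milk-producing cells depend on prosurvival signals from hormones and growth factors through lactation.

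The libraries differed in their cell markers and milk genes. CSN3, which encodes kappa-casein, had 25446 FPKM in the E library, 3989 FPKM in the P library and 27391 FPKM in the L library. LALBA, which encodes alpha-lactalbumin, was listed at 0 in the L library and at 70053 and 15214 FPKM in the E and P libraries, so a value of 0 is given only as listed. The 10 leukocyte markers summed to 60.9, 110.9 and 34.0 FPKM in the E, P and L libraries, and CD3E, a T cell marker, was listed at 0 in the E and P libraries. Basal and myoepithelial markers summed to 296, 284 and 306 FPKM, endothelial markers to 123, 111 and 135 FPKM and fibroblast markers to 664, 549 and 542 FPKM. Adipocyte markers summed to 701, 275 and 1152 FPKM, but nearly all of this was LPL, with 683, 269 and 1145 FPKM. The other adipocyte markers were highest in the E library, ADIPOQ with 15.1, 4.10 and 5.69 FPKM, PLIN1 with 1.28, 0.836 and 0.468 FPKM and CIDEC with 1.73, 0.917 and 0.247 FPKM. Epithelial markers were present throughout, with EPCAM at 77.8, 60.0 and 76.4 FPKM and CDH1 at 34.5, 39.8 and 36.7 FPKM. The columns of the P and L libraries may be exchanged. Of the lncRNA transcripts that the study lists with a direction between these stages, 217 were matched, and they belong to 148 genes. The sign of the L over P ratio of the gene was the same for 40 transcripts by label and for 177 with the columns exchanged. Transcripts of one gene share its ratio, so these are not 217 separate checks. Each library is still called by its label. An exchange would turn every direction given between P and L, and values and comparisons of P with E would become those of L with E.

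The abundance of the members spanned a wide range, and its upper end was ordered alike in the 3 libraries. MCL1 was the most abundant, followed by BID, BAK1 and BAD, while the order of the other 5 members changed from library to library. The share of protein-coding genes with lower FPKM than MCL1 was 96.7%, 98.0% and 95.2% in the E, P and L libraries. BCL2, the lowest member in the E and L libraries, exceeded 31.4%, 46.6% and 29.3% of protein-coding genes in the E, P and L libraries. In the P library BCL2L11 was the lowest member and exceeded 21.6% of them. The median protein-coding gene had 7.0, 7.21 and 6.78 FPKM, and 5, 6 and 4 of the 9 members lay above it. Neighbours in this order that lie close together, such as BAX and BCL2L1 in the E library, cannot be ranked, since their spread is unknown.

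**Figure D1:**
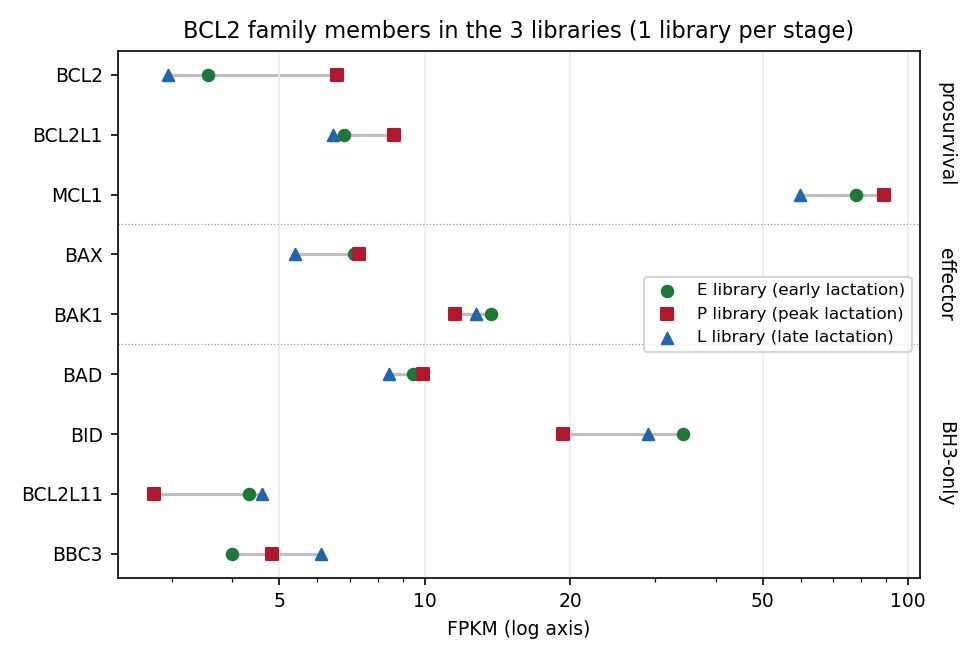
FPKM of the 9 BCL2 family members on a log axis, with 1 point per library and a grey bar from the lowest to the highest of the 3. MCL1 lies between 59.8 and 89.0 FPKM, BID between 19.3 and 34.3 FPKM, and each of the other members below 14 FPKM.

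Among the prosurvival members, each was highest in the P library and lowest in the L library. BCL2, the founding member, is listed on scaffold NW_005100931.1 from 1470812 to 1670368. It had 3.57 FPKM in the E library, 6.59 FPKM in the P library and 2.94 FPKM in the L library. Its highest value was 2.24 times its lowest, the widest range among the 9 members. The log2 ratio of L over P was -1.16, and 21.3% of protein-coding genes were at least as far apart in that comparison. With entries summed and no other scaling, BCL2 was the only member that reached a 2-fold difference in FPKM between libraries. The annotated entry of BAX, taken alone, also reached it.

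BCL2L1, which encodes BCL-XL, is listed on scaffold NW_005100803.1 from 7367973 to 7420117 and had 6.81, 8.66 and 6.46 FPKM in the E, P and L libraries. The P library was the high one, and the others lay 0.07 apart on the log2 scale. BCL2L1 exceeded BCL2 in each library, by 1.91, 1.31 and 2.20 times. MCL1 encodes a short-lived prosurvival protein and is listed on scaffold NW_005100634.1 from 2433918 to 2438554. It had 77.9 FPKM in the E library, 89.0 FPKM in the P library and 59.8 FPKM in the L library. MCL1 thus made up 88.2%, 85.4% and 86.4% of the summed FPKM of the 3 prosurvival genes. Its level was 21.8 times that of BCL2 in the E library, 13.5 times in the P library and 20.3 times in the L library.

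Of the effectors, BAK1 was among the steadiest members. BAK1, listed on scaffold NW_005100916.1 from 5509605 to 5516895, had 13.7, 11.6 and 12.8 FPKM in the E, P and L libraries, and its highest value was 1.19 times its lowest. BAX had 7.14, 7.30 and 5.40 FPKM, the sum of 3 entries. The E and P libraries were nearly level for BAX, and the L library was the low one. BAK1 exceeded BAX in each library, by 1.92, 1.59 and 2.37 times.

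The value of BAX depended on which entry was read. Its 3 entries share 1 locus on scaffold NW_005100871.1 from 3730668 to 3785100, a span of 54433 nt that is also listed for NUCB1, for DHDH and for a gene ID without a match. The annotated entry had 2.04 FPKM in the E library, 2.66 FPKM in the P library and 0.873 FPKM in the L library, a log2 ratio of -1.61 of L over P. The most abundant assembled entry ran the other way, with 3.45, 2.08 and 3.19 FPKM and a log2 ratio of 0.61 for the same libraries. The other assembled entry had 1.65, 2.55 and 1.34 FPKM. In the sum these differences largely cancelled, and the log2 ratio was -0.43. Reads from overlapping genes may be divided among these entries, so a direction for BAX is uncertain. The other 8 members overlapped no entry of another gene and no assembled locus without a gene ID.

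**Figure D2:**
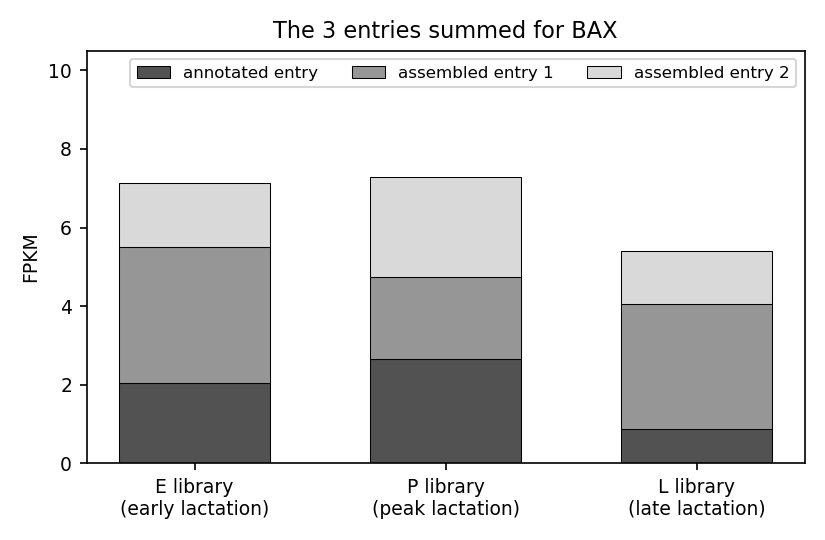
FPKM of the 3 entries summed for BAX, stacked by library, with the annotated entry at the bottom and the assembled entries above it. The annotated entry is smallest in the L library, at 0.873 FPKM, where the first assembled entry has 3.19 FPKM.

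The BH3-only members did not move together. BID links death receptors to mitochondria after its cleavage by caspase 8, and is listed on scaffold NW_005100677.1 from 1023000 to 1028506, with 3138 nt to the locus of its relative BCL2L13. It had 34.3 FPKM in the E library, 19.3 FPKM in the P library and 29.0 FPKM in the L library. The P library was the low one, at a log2 ratio of -0.83 over the E library, and 23.7% of protein-coding genes were at least as far apart. BID made up 65.8%, 52.4% and 60.3% of the summed FPKM of the 4 BH3-only genes.

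BCL2L11, which encodes BIM, an activator bound by all prosurvival proteins, is listed on scaffold NW_005100769.1 from 1269682 to 1320757. It had 4.33 FPKM in the E library, 2.75 FPKM in the P library and 4.62 FPKM in the L library. It was thus lowest in the P library, as BID was, with the others 0.09 apart on the log2 scale. BCL2 was 0.824 times BCL2L11 in the E library, 2.39 times in the P library and 0.637 times in the L library, so the order of this pair differed between libraries.

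BBC3, which encodes PUMA, an activator of BAX and BAK1, is listed on scaffold NW_005100871.1 from 2486539 to 2489071, with 1.24 Mb to the locus of BAX. Its FPKM of 4.0, 4.83 and 6.09 made it the only member that was lowest in the E library. The log2 ratio of L over E was 0.61, the largest among the members in that comparison, and 17.0% of protein-coding genes were at least as far apart. BAD, whose protein is held inactive by phosphorylation downstream of growth factors, is listed on scaffold NW_005100977.1 from 619619 to 633371 and had 9.45, 9.92 and 8.43 FPKM over 2 entries. The highest value of BAD was 1.18 times its lowest, close to the 1.19 of BAK1.

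When the members were summed by class, the 3 prosurvival genes had 88.3 FPKM in the E library, 104.3 FPKM in the P library and 69.2 FPKM in the L library. The 2 effectors had 20.9, 18.9 and 18.2 FPKM. The 4 BH3-only genes had 52.1, 36.8 and 48.2 FPKM. The prosurvival sum was thus highest in the P library, where the BH3-only sum was lowest. The ratio of the prosurvival to the BH3-only sum was 1.70, 2.83 and 1.44 in the E, P and L libraries, and that of the prosurvival to the effector sum was 4.23, 5.53 and 3.80. MCL1 made up most of the prosurvival sum and BID most of the BH3-only sum, and the ratio of MCL1 to BID was 2.27, 4.61 and 2.06. Without MCL1, BCL2 and BCL2L1 together had 10.4, 15.3 and 9.40 FPKM. The ratios are of RNA, and protein levels and the modifications that govern these proteins were not measured.

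**Figure D3:**
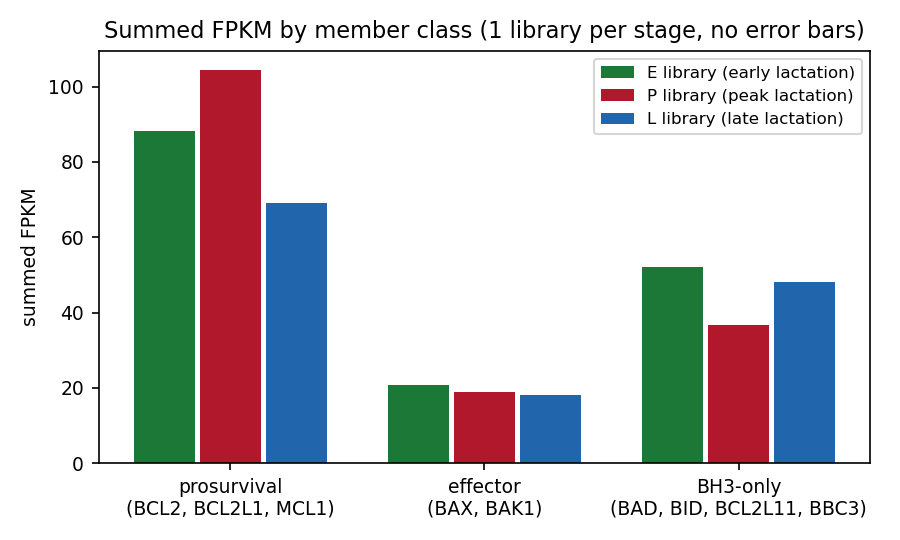
Summed FPKM of the prosurvival, effector and BH3-only members, with 1 bar per library and no error bars, since each stage has 1 library. The prosurvival bar is tallest in the P library, at 104.3 FPKM, where the BH3-only bar is shortest, at 36.8 FPKM.

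Between the E and P libraries, 0 of the 9 members differed at least 2-fold in FPKM, where 17.7% of 13020 protein-coding genes did. Of the 11479 genes at 1 FPKM or more in both, as all 9 members were, 12.5% did. Of the members, 6 were higher in the P library and 3 were lower, with a median log2 ratio of 0.07 and a range from -0.83 for BID to 0.88 for BCL2. The median over protein-coding genes at 1 FPKM or more in both was -0.03. In absolute size, the median log2 ratio was 0.27 for the members and 0.36 for these genes. BCL2 lay close to the threshold and passed it on another scale: with FPKM divided by their sum over all loci its log2 ratio was 1.03, and with FPKM divided by the upper quartile of protein-coding genes it was also just above 1. These scales moved the ratios of all genes in this comparison by 0.14 and 0.13.

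Between the E and L libraries, 0 of the 9 members differed at least 2-fold, against 8.71% of 13004 protein-coding genes. Of the 11234 genes at 1 FPKM or more in both, as all 9 members were, 2.88% did. Lower in the L library were 7 members, and BCL2L11 and BBC3 were higher. The median log2 ratio was -0.16, with a range from -0.40 for BAX to 0.61 for BBC3, beside a median of -0.01 for protein-coding genes. In absolute size, the median was 0.24 for the members and 0.19 for protein-coding genes at 1 FPKM or more in both. Division by the sum over all loci moved the ratios of all genes in this comparison by 0.13, and BCL2L1 and BAK1 then changed sign.

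Between the P and L libraries, 1 of the 9 members, BCL2, differed at least 2-fold. Of 13015 protein-coding genes, 25.9% reached this difference, 17.4% higher in the P library and 8.56% higher in the L library. Of the 11200 genes at 1 FPKM or more in both, as all 9 members were, 18.0% did. All 3 prosurvival members were lower in the L library, with log2 ratios of -1.16 for BCL2, -0.42 for BCL2L1 and -0.57 for MCL1. BID, BCL2L11 and BBC3 were higher, with log2 ratios of 0.59, 0.74 and 0.33, while BAD was lower at -0.24. The median over the 9 members was -0.24, beside 0.03 for protein-coding genes. In size, the median absolute log2 ratio of the members was 0.43, close to the 0.42 of protein-coding genes at 1 FPKM or more in both.

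**Figure D4:**
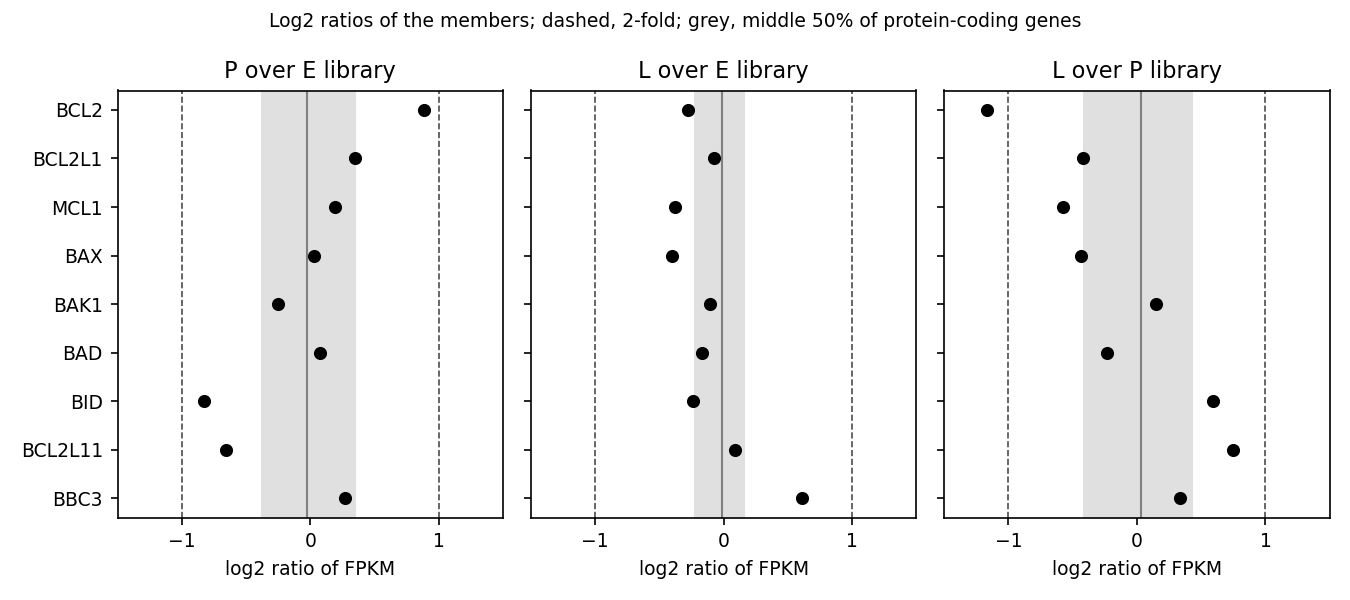
Log2 ratios of FPKM of the 9 members in the 3 comparisons between libraries, beside the middle 50% of protein-coding genes at 1 FPKM or more in both (grey band) and the 2-fold limits (dashed lines). BCL2 lies beyond the limit in L over P, at -1.16, and no other point does.

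The summed leukocyte markers had the same order of libraries as BCL2, highest in P and lowest in L. PTPRC, the common leukocyte antigen CD45, had 17.6 FPKM in the E library, 39.9 FPKM in the P library and 8.08 FPKM in the L library. CD79B, a part of the B cell receptor, had 1.08, 7.22 and 0.308 FPKM. Of the 10 leukocyte markers, 5 were at least 2-fold higher in the P than in the E library, and 7 were at least 2-fold higher in it than in the L library. Of all protein-coding genes, 10.9% and 17.4% were higher in the P library to this extent. With at least 1 FPKM required in both libraries, 3 of 7 and 3 of 5 leukocyte markers were higher in it. Under that filter 12.5% and 18.0% of protein-coding genes differed in either direction. CD3E ran the other way, with 0, 0 and 1.43 FPKM, and CD14 was nearly level, with 12.4, 12.5 and 11.3 FPKM. Of the 6 fibroblast markers, DCN and PDGFRA were also highest in the P library, while COL1A1, COL1A2, COL3A1 and LUM were lowest there. The part of these cell types in the levels of BCL2 was not tested, and in tissue RNA fewer cells of a type and less RNA per cell cannot be told apart. ELF5, a transcription factor of the secretory lineage, had 879, 244 and 875 FPKM, lowest in the P library as BID and BCL2L11 were. Other epithelial markers differed in direction. KRT8, with 126, 196 and 154 FPKM, KRT18, with 21.0, 32.0 and 19.5 FPKM, and CDH1 were highest in the P library. EPCAM was lowest there, and KRT19 was highest in the E library, with 439, 413 and 364 FPKM. Of the 11 luminal secretory markers, ELF5 among them, 6 were at least 2-fold lower in the P than in the E library and 0 were higher. Of all protein-coding genes, 17.7% differed to this extent in either direction. Those higher in the P library were 10.9%, so the genes lower there were the smaller part of the 17.7%. The part of the epithelial markers in the levels of the members was likewise not tested.

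Beyond the 9 members, 10 of 14 other BCL2 family genes were measured. At least 2-fold higher in the P than in the L library were 4 of them, and 1 was lower, beside 17.4% and 8.56% of all protein-coding genes. BCL2A1 encodes a prosurvival protein of blood cells and had 4.06 FPKM in the E library, 9.79 FPKM in the P library and 1.34 FPKM in the L library, a log2 ratio of -2.87 of L over P. BCL2L15 ran the other way, with 8.67, 4.10 and 13.6 FPKM and a log2 ratio of 1.73. The other 3 genes higher in the P library were BCL2L14, BIK and PMAIP1, named here after their values were seen. All 3 were below 1 FPKM in the E and L libraries. PMAIP1 was below 1 FPKM in the P library as well, with 0.758, 0.729 and 0 FPKM, so its call rests on the 0 listed in the L library. BNIP3L, a mitophagy receptor and the most abundant of this list, had 19.0, 25.6 and 18.6 FPKM.

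Of the genes that act after mitochondria are opened, the apoptosome and caspases, 13 of 15 were measured. HTRA2, a mitochondrial protease and the most abundant of the list, had 20.4, 19.1 and 23.8 FPKM. Of the inhibitor of apoptosis genes, 5 of 7 were measured. BIRC3, an NF-kappaB target that encodes cIAP2, had 25.3, 53.0 and 18.4 FPKM, so that the P library was at least 2-fold above both others. NAIP had 2.04, 3.27 and 1.22 FPKM and a log2 ratio of -1.42 of L over P.

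Among death receptors and their adaptors, 11 of 12 genes were measured, and 3 were at least 2-fold higher in the P than in the L library, as were 17.4% of all protein-coding genes. With at least 1 FPKM required in both libraries 1 of the 3, FAS, was left. FAS, the receptor that activates caspase 8, had 6.07 FPKM in the E library, 11.5 FPKM in the P library and 5.21 FPKM in the L library. FASLG and TNF, the others, were below 1 FPKM in the L library and are named here after their values were seen. TNFRSF21, also called death receptor 6, was the most abundant of the list, with 95.2, 71.6 and 100.5 FPKM.

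Of 15 transcriptional regulators of the family, 12 were measured. ATF4, a regulator of the integrated stress response, was the most abundant, with 111, 97.4 and 119 FPKM.

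Of 25 genes for protein partners and turnover, 23 were measured, and 5 were at least 2-fold higher in the L than in the P library, against 8.56% of all protein-coding genes. ITPR1 and YWHAQ were at least 2-fold higher in the P library, where 17.4% were, and YWHAQ, named after its values were seen, was listed at 0 in the L library. Of the 5, BAG1 and VDAC3 are named after their values were seen. BAG1 had 9.03, 5.29 and 10.8 FPKM, and VDAC3 had 3.79 FPKM in the L library but was listed near 0 in the others. MTCH2, the mitochondrial receptor of truncated BID, had 83.7 FPKM in the E library, 33.1 FPKM in the P library and 91.6 FPKM in the L library. It was lowest in the same library as BID. BCAP31 and TMBIM6, which act in the endoplasmic reticulum, had log2 ratios of 1.12 and 1.04 of L over P, and TMBIM6 was the most abundant of the list with 226, 144 and 296 FPKM. ITPR1, a calcium channel of that compartment whose activity BCL2 restrains, had 15.6, 29.2 and 10.1 FPKM, the same order of libraries as BCL2. PIM1, a kinase that phosphorylates BAD, was highest in the E library, with 16.4, 7.59 and 8.77 FPKM.

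Over these 6 lists together, 11 of 74 measured genes differed at least 2-fold between the E and P libraries, 8 between E and L and 19 between P and L. As shares these were 14.9%, 10.8% and 25.7%, near the 17.7%, 8.71% and 25.9% of all protein-coding genes. Of the 19, 13 were higher in the P library and 6 in the L library, or 17.6% and 8.11% of the 74, beside 17.4% and 8.56% of all protein-coding genes. With at least 1 FPKM required in both libraries, a filter added after the values were seen, 6 of 66, 1 of 65 and 11 of 65 listed genes differed. These are 9.09%, 1.54% and 16.9%, below the 12.5%, 2.88% and 18.0% of protein-coding genes under the same filter.

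**Figure D5:**
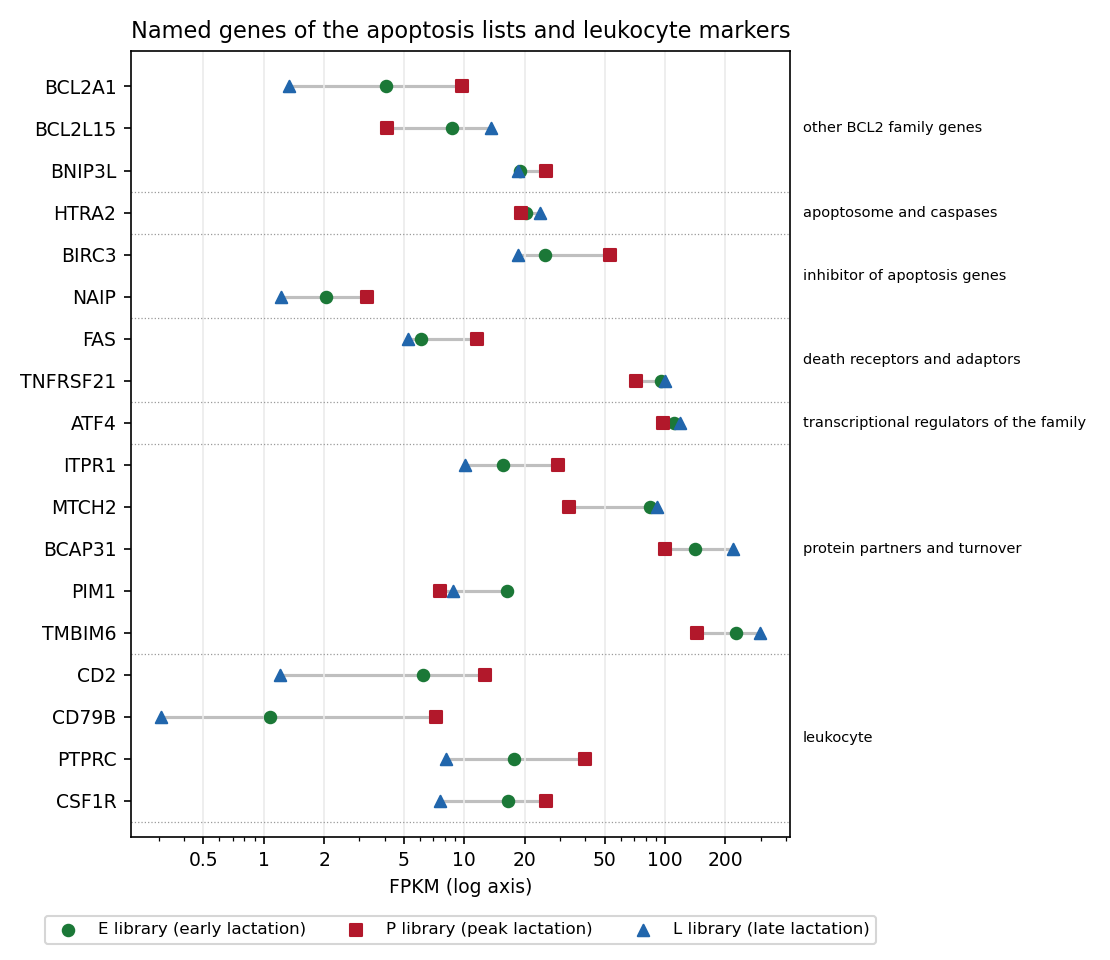
FPKM on a log axis of the named genes of 6 apoptosis lists and of 4 leukocyte markers, with 1 point per library. BCL2A1, BIRC3, NAIP, FAS, ITPR1 and the leukocyte markers are highest in the P library and lowest in the L library, while BCL2L15, MTCH2, BCAP31 and TMBIM6 are lowest in the P library.

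Of 11086 other protein-coding genes with at least 1 FPKM in all 3 libraries, the genes nearest to BCL2 in their log2 ratios of P and L over E were TWF2, NUAK2 and S100A16. TWF2 lay at a distance of 0.0041 from BCL2 on the log2 scale, with 7.31, 13.5 and 6.01 FPKM. With 3 libraries such likeness is common, and 226 genes lay within 0.2 of BCL2.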

How the data were processed

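Total RNA of the mammary gland (RIN of at least 7.7) was pooled from 5 goats per stage, and the authors made 1 stranded library for each. They trimmed the reads, mapped them with TopHat 2.0.9, assembled and merged transcripts with Cufflinks 2.1.1 and Cuffmerge, and deposited FPKM from Cuffdiff. No other per-sample column was used. FPKM were given with up to 7 digits, and of values with 7 digits at least 95.7% per library ended in 5, as means of 2 values with 6 digits do. The sources used here do not state that values were averaged.

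Columns were assigned by the labels. Directions between P and L were also compared with the study's supplementary list of lncRNA transcripts, matched by RefSeq accession.

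Gene IDs were matched to the ARS1.2 gene table (14403 of 15274 loci with a single ID) for symbols only, since the methods name a goat genome version and an assembly, and the deposited values do not say to which the listed scaffolds belong. Sequences of the members were not used here. FPKM of entries with one gene ID were summed. Ratios were taken from FPKM with 0 set to 0.001, and a gene was called at 2-fold or more. No test was possible with 1 library per stage. The fold calling was run on simulated data as a check of the code. The changes put in exceeded the threshold and the noise was small, so this says nothing about error between libraries. The members and lists were chosen with earlier results of these data known. Genes named beside the members were, per list, up to 4 with the largest ratio among those at least 2-fold apart and at 1 FPKM or more in each of the libraries compared, and the gene with the highest mean, together with the 3 genes nearest in pattern to the member with the largest ratio. The lists of the closing section were added after the values of the members were seen. Listed genes without a matched entry were not analysed here. Values of some listed genes are not reported here, although the counts over lists include them. Alternatives were other folds, pseudocounts, a filter on low FPKM, the highest entry or only annotated entries of a gene, 3 other scalings and the exchange of columns. Python 3.11.15, numpy 2.4.6, pandas 2.3.3 and matplotlib 3.10.9 were used.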

Additional observations from a re-analysis of the deposited data

How the results depend on the processing

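No paired analysis was possible because there is 1 library per stage, and no library was left out for the same reason. A value other than a count was taken as moved where its second decimal changed, and the cause was not tested beyond the setting itself.

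At a fold of 1.5 or more, 3 members differed between E and P, 1 between E and L and 3 between P and L, and in the 6 other apoptosis lists 26 and 18 genes differed between E and P and between E and L. At a fold of 4 or more, 0 members differed between P and L, and in the lists 1, 5 and 9 genes differed in the comparisons P with E, L with E and L with P. A pseudocount of 1 left 0 members between P and L, and 7 and 4 listed genes in the comparisons with E. A filter of 1 FPKM in either library left 4 listed genes between E and L, and a filter in both left 6, 1 and 11 in the order above. With FPKM divided by their sum or by the upper quartile, 1 member, BCL2, differed between E and P. With annotated entries only, a setting added after the values were seen, 1 member differed between E and L and 2 between P and L, since BAX passed. Apart from the filter in both libraries, the share of protein-coding genes was not computed under these settings. These counts therefore cannot be read as more or fewer than among all genes.

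The median log2 ratio of the members of P over E, 0.07, was 0.064 with a pseudocount of 1, 0.040 with the highest entry of each gene, 0.10 after centring, 0.21 and 0.20 on the scales of the sum and the upper quartile, and 0.19 with annotated entries only. That of L over E, -0.16, was -0.15, -0.12, -0.15, -0.037, -0.17 and -0.17 in the same order. That of L over P, -0.24, was -0.23 with a pseudocount of 0.1 and then -0.21, 0.15, -0.27, -0.25, -0.37 and -0.21, so the highest entry alone turned its sign. Exchanging the columns of P and L turned the medians to -0.16, 0.071 and 0.24 and the log2 ratio of BCL2 of L over P to 1.16. The ratio of the prosurvival to the effector sum was then 3.80 in P and 5.53 in L. With the highest entry it was 5.13, 7.64 and 4.33 in E, P and L, and with annotated entries only 5.59, 7.33 and 5.06, highest in P in both. Of 189 ratios of single members recomputed without the exchange, 185 kept their sign. The others were BAX in P over E and L over P with the highest entry, and BCL2L1 and BAK1 in L over E on the scale of the sum. Many of the 189 could not change sign, since a pseudocount keeps it and the choice of entry leaves members with a single entry unchanged.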

Other observations

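Genes of 2 other forms of cell death and removal were described after the values of the members had been seen. Of 13 genes of pyroptosis and necroptosis, the lytic forms of cell death, 7 were measured, and 6 of them were at least 2-fold higher in the P than in the L library, 3 of these with at least 1 FPKM in both. RIPK3, the kinase that starts necroptosis, had 3.83 FPKM in the E library, 9.07 FPKM in the P library and 2.72 FPKM in the L library. ZBP1, a nucleic acid sensor that binds RIPK3, had 3.26, 7.13 and 1.59 FPKM. GSDMD, which forms pores in the plasma membrane, had 9.96, 9.40 and 4.61 FPKM, so that the E and P libraries were close. IL18, the most abundant of the list, had 16.7, 18.0 and 10.1 FPKM. The share of all protein-coding genes at least 2-fold higher in the P than in the L library was 17.4%. In the same comparison 7 of 10 leukocyte markers were at least 2-fold higher, 3 of these with at least 1 FPKM in both. The 10 markers summed to 110.9 and 34.0 FPKM in these libraries, and their part in these values was not tested.

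Of 17 genes of autophagy, including BECN1, whose protein carries a BH3 domain and binds BCL2, 16 were measured. BECN1 had 19.6, 22.2 and 22.7 FPKM in the E, P and L libraries and thus differed less than BCL2. ATG12, a ubiquitin-like protein of autophagosome formation, was the only gene of the list that differed at least 2-fold, with 38.8 FPKM in the E library, 16.9 FPKM in the P library and 40.4 FPKM in the L library. All 16 had at least 1 FPKM in both libraries of each comparison. Of protein-coding genes under that filter, 12.5% differed between E and P, 2.88% between E and L and 18.0% between P and L. SQSTM1, the receptor p62, was the most abundant, with 98.2, 137 and 98.1 FPKM.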
